A study of Mus musculus with 15 samples.

Results

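The genes described here are 10 transcripts by which microglia and macrophages are commonly recognised, Cx3cr1, P2ry12, Tmem119, Csf1r, Aif1, Trem2, Tyrobp, Cd68, Itgam and Mrc1. They were taken by name from 22180 genes measured in whole mouse eyes, and each is represented by 1 probe set on the array. Messenger RNA was measured on 15 Affymetrix Mouse Gene 2.1 ST arrays, each of which held RNA pooled from eyeballs, from mice of the strain C57BL/6J per the labels. The labels give 4 arrays of wild type (WT) mice and 3 of R6/1 mice at 6 months of age, and 4 arrays of WT mice and 4 of R6/2 mice at 9 weeks of age, with both models at a symptomatic stage. R6/1 and R6/2 mice are models of Huntington's disease that carry, as a transgene, the first exon of the mutated human HTT gene with an expanded CAG repeat, and so make an N-terminal fragment of huntingtin and not the whole protein. WT mice were littermates without the transgene. As the number of animals behind each pool is not given in the sources used here, each p measures the spread between these pools. The number of arrays limits the precision.

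Microglia are the resident macrophages of the retina. They depend on signalling through the receptor CSF1R and are held in a surveying state by contact with neurons, in part through the neuronal ligand CX3CL1 and its receptor CX3CR1. Other macrophages live in the uvea, the sclera, the cornea, the eye muscles and the glands around the eye. In degenerating nervous tissue microglia may lower P2RY12 and TMEM119 and take up debris with the help of TREM2 and its adaptor TYROBP. Most of the 10 genes are used by both kinds of cell, so the source of a signal in the whole eye cannot be told from them. In bulk tissue, fewer cells of a type and less RNA per cell cannot be told apart.

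A promoter motif is shown because it belongs to the regulation that these cells are known for. PU.1, the transcription factor on which the whole myeloid lineage depends, binds a purine-rich core whose letters are GAGGAA. RefSeq promoter windows, from 250 bases before to 50 bases after the transcription start (mouse build GRCm38.p6), were matched by symbol for 7 of the 10 genes. The core was present on either strand in 5 of these 7, namely Aif1, Trem2, Cd68, Itgam and Mrc1, and was absent from the windows of Cx3cr1 and P2ry12. Of all 32851 windows in the same table, 28.3% held it. A match is a run of letters only, not a bound site, and nothing is drawn from it about the factor. A stretch of 26 bases around 1 core of each gene is given 5′ to 3′ on the strand that reads GAGGAA, with the core in capitals. Where a window holds more than 1 core, that nearest to the transcription start on its upstream side is shown.
Aif1: caataggatgGAGGAActgggtgcct (chr17:35176044-35176069, + strand)
Trem2: gtgagggaggGAGGAAggaaaggagg (chr17:48346351-48346376, − strand)
Cd68: tcttaccaatGAGGAAagggcttccc (chr11:69666380-69666405, − strand)
Itgam: agagaagtatGAGGAAaaagctatga (chr7:128062615-128062640, − strand)
Mrc1: aaggaggacaGAGGAAgctgtccctt (chr2:14229369-14229394, − strand)

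Mrc1 was the 1 gene of the 10 that passed the test in any of the comparisons below. Its window held 3 cores, as did that of Itgam, which passed in none of them. The 250 bases before the transcription start of Mrc1 are shown whole. They are read on the strand of the gene (chr2:14229164-14229413, + strand, GRCm38.p6), on which all 3 cores appear as their reverse complement TTCCTC, in capitals. The cores ended 175, 162 and 30 bases before the transcription start.
Mrc1 promoter: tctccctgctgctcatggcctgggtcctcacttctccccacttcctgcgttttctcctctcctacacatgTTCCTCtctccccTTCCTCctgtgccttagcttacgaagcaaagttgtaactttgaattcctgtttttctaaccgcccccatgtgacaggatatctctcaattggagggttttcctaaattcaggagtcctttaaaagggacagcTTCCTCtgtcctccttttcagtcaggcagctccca

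Values throughout are the deposited RMA expression values, which are log2 intensities after background correction and normalization across arrays, so a difference of 1 is a doubling. An array value says how bright a probe set was, and levels of different genes are not compared with each other through it. Some arrays stood apart. The array labelled WT replicate 4 at 6 months had a value of 3.48 for Opn1sw, the short-wave cone opsin, against 7.46 to 7.84 in WT replicates 1 to 3 and 2.51 to 3.01 in the 3 R6/1 arrays. The methods of the study give 3 WT and 4 R6/1 samples at 6 months, where the labels give 4 and 3. The labels were kept, and for the named genes the differences between R6/1 and WT eyes are given with and without that array. At 9 weeks, WT replicates 2 and 4 were high in Elovl3, a lipid enzyme of sebaceous-type glands (9.11 and 9.51, against 6.04 and 1.64 in WT replicates 1 and 3). In the R6/2 arrays Elovl3 was 7.14 in replicate 4 and 1.86 to 3.04 in replicates 1 to 3. Only WT replicates 2 and 4 were left out in the setting without gland-rich arrays. The interquartile range over all probe sets was 2.43 to 2.61 in 13 arrays and narrower in a pair of 6-month arrays, WT replicate 3 (2.17) and R6/1 replicate 3 (2.26).

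The mean of each probe set over 15 arrays is given to show how bright its signal was, and not to order the genes by expression. It was 4.997 for Cx3cr1, 4.88 for Itgam, 4.56 for Csf1r, 4.42 for Mrc1 and 4.26 for Cd68. It was 3.27 for P2ry12, 3.24 for Trem2 and 2.88 for Tyrobp. The means of Tmem119, at 2.46, and Aif1, at 2.41, lay below the median value of every array (2.78 to 2.95), and that of Tyrobp lay within the range of these medians. In R6/1 replicate 3 Aif1, at 2.99, was above the median of that array (2.94). No background level was used here, so whether these dim probe sets measured transcript or background cannot be told. P2ry12 had the same value, 3.24, in 5 of the 15 arrays, and its interquartile range over arrays exceeded that of 6.48% of genes.

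**Figure D1:**
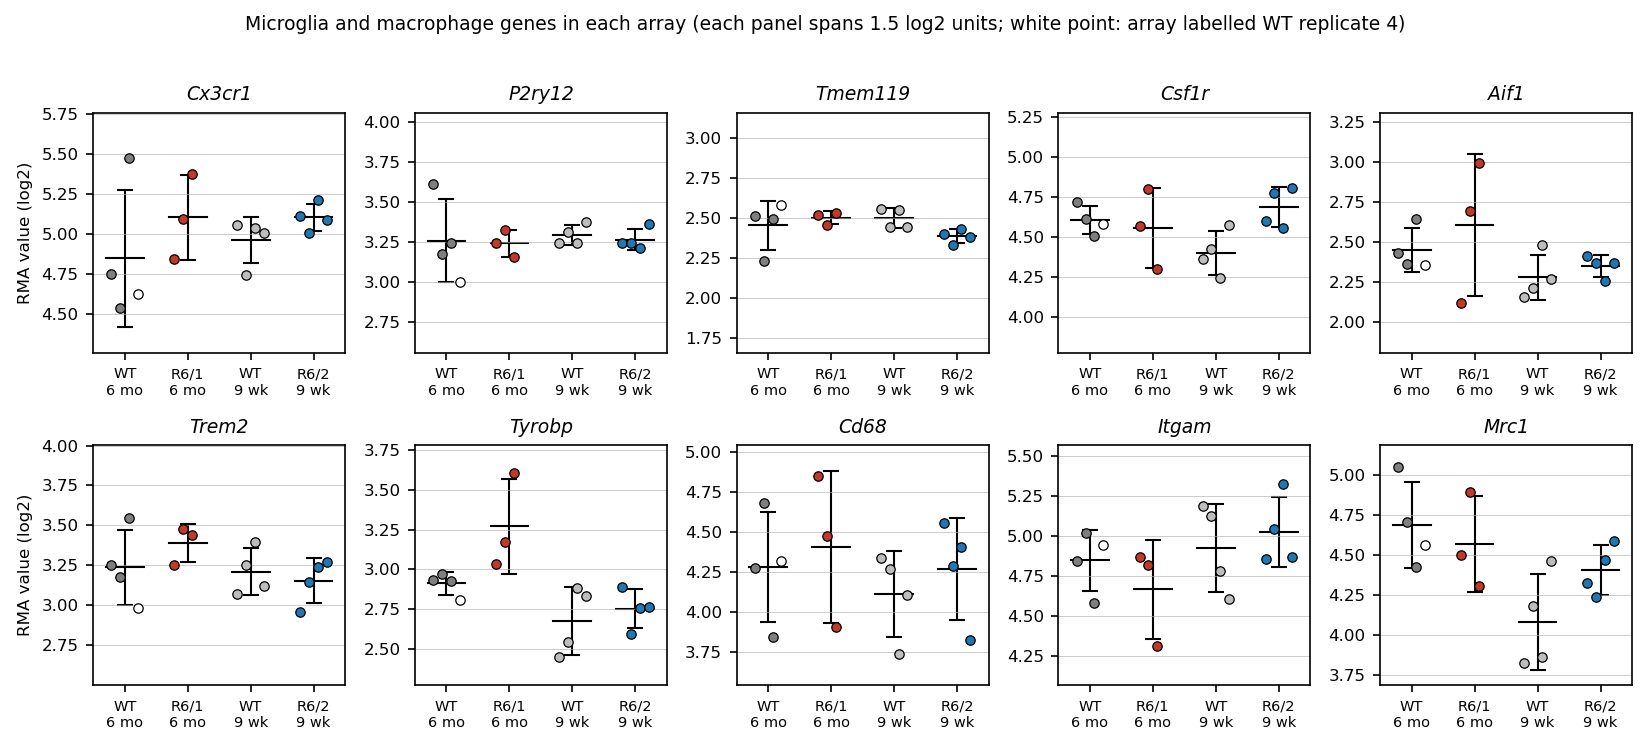
Expression value (RMA, log2) of each of the 10 genes in each of the 15 arrays, by group, where points are arrays in order of replicate number, horizontal lines are means and bars are SD. The axes of all panels span 1.5 log2 units. The R6/1 arrays lie above the WT arrays of 6 months for Tyrobp, and the groups overlap for the other 9 genes at 6 months.

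None of the 10 genes passed the test between R6/1 and WT eyes at 6 months. A gene was called at an unadjusted p under 0.05 together with a Benjamini-Hochberg adjusted p under 0.20 in limma. A variance filter was applied first, as in the study, whose methods do not state its cut. The filter used here kept the upper 50% of genes by interquartile range, and 4 of the 10 genes passed it (Cx3cr1, Cd68, Itgam and Mrc1). The other 6 were taken from the same fit over all genes. Among the genes tested, 0.0541% were called (6 of 11090), and 0.00902% without the filter. The estimated log2 differences of the 10 genes ran from −0.18 to 0.36, with 6 above 0 and a median of 0.09, beside a median of 0.01 over all genes. Their 95% confidence intervals together reached from 0.668-fold to 1.59-fold of the WT level. A fit that held replicate number as a block called 76 genes in place of 6, and the fit without WT replicate 4 called 51, in both cases with 0 of the 10. These are not separate checks. No R6/1 array has the number 4, so the block fit also took WT replicate 4 out of the R6/1 differences. Those of the 10 genes were the same in both fits. Other tissues of the eye differed beside this comparison, and their part in the values of the 10 genes was not tested. The median log2 difference of 5 cone genes was −2.33 with all arrays (1 called, Opn1sw) and −2.98 without WT replicate 4 (5 called). That of 4 rod genes was −0.42 (0 called) and −0.51 (1 called). That of 5 eye muscle genes was −0.20 (0 called) and −0.62 (2 called).

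Tyrobp, the signalling adaptor that TREM2 and other myeloid receptors share, had the largest estimated difference at 6 months. Its values were 3.03, 3.17 and 3.60 in the R6/1 arrays and 2.94, 2.97, 2.93 and 2.81 in the WT arrays. All R6/1 arrays lay above all WT arrays, and R6/1 replicate 3, the highest, is 1 of the 2 arrays of narrow range. The log2 difference was 0.36 ± 0.14 (SE), a 1.28-fold level, with an unadjusted p of 0.023 and an adjusted p of 1.00 in limma. Tyrobp was the 1 gene of 10 with an unadjusted p under 0.05, as had 3.1% of all genes, and the 1 of 10 without overlap between groups, as were 3.13% of all genes. The difference was 0.32 without WT replicate 4 and 0.20 without the 2 arrays of narrow range, with an adjusted p of 1.00 in limma in both settings.

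Trem2, a lipid-sensing receptor of phagocytic microglia, was at 3.25, 3.48 and 3.44 in the R6/1 arrays and at 3.25, 3.18, 3.55 and 2.98 in the WT arrays. The difference of 0.15 ± 0.13 (SE) was within the spread, as WT replicate 3 exceeded every R6/1 array, and it was 0.064 without WT replicate 4. Aif1, the actin-binding protein stained as IBA1, spread more within the R6/1 group (2.12, 2.70 and 2.99) than between it and the WT group (2.43, 2.36, 2.65 and 2.35). Its difference was 0.16 with all arrays, 0.12 without WT replicate 4 and −0.04 without R6/1 replicate 3.

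Among the genes of surveying microglia, Cx3cr1, the fractalkine receptor, was at 4.84, 5.09 and 5.38 in the R6/1 arrays and at 4.75, 4.54, 5.47 and 4.63 in the WT arrays. The highest value of each group was that of replicate 3. The difference was 0.26 ± 0.20 (SE) with all arrays, 0.18 without WT replicate 4 and 0.33 without the 2 arrays of narrow range (unadjusted p = 0.036, adjusted p = 1.00 in limma). P2ry12, the ADP receptor that steers microglial processes, differed by −0.02 ± 0.12 (SE), and by −0.10 without WT replicate 4. Tmem119, a membrane protein used to tell microglia from other macrophages, differed by 0.05 ± 0.10 (SE), and by 0.092 without it. With all arrays the intervals of these last 2 genes reached from 0.825-fold to 1.19-fold of the WT level.

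Csf1r, the receptor for CSF1 and IL-34 that keeps microglia and macrophages alive, was at 4.56, 4.80 and 4.30 in the R6/1 arrays and at 4.72, 4.61, 4.51 and 4.58 in the WT arrays. All 4 WT values lay inside the R6/1 range, and the difference was −0.05 with all arrays and −0.06 without WT replicate 4. Of the macrophage genes, the lysosomal glycoprotein gene Cd68 differed by 0.13 ± 0.24 (SE). Itgam, which encodes the integrin CD11b of all myeloid cells, differed by −0.18 ± 0.19 (SE), and Mrc1, the mannose receptor of tissue-resident macrophages, by −0.12 ± 0.19 (SE). Without WT replicate 4 these differences were 0.14, −0.15 and −0.16. In each of these 3 genes the lowest array of either group at 6 months was replicate 3, of narrow range. Whether the width of the array's distribution had a part in these values was not tested beyond the settings given here.

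None of the 10 genes passed the test between R6/2 and WT eyes at 9 weeks. Among the genes tested 0.171% were called (19 of 11090), and 0.0766% without the filter. The log2 differences of the 10 genes ran from −0.11 to 0.32, with 7 above 0 and a median of 0.09, beside a median of 0.02 over all genes. Their 95% intervals together reached from 0.800-fold to 1.63-fold of the WT level. The mean of the 10 genes was 3.70 to 3.79 in the R6/2 arrays and 3.62 to 3.68 in the WT arrays. At 6 months it was 3.78 to 3.92 in the R6/1 arrays and 3.68 to 3.84 in the WT arrays. The ranges did not meet at 9 weeks and overlapped at 6 months. Of single genes, 5.23% were without overlap at 9 weeks and 3.13% at 6 months. The means of the cone, eye muscle and fibroblast genes did not meet at 9 weeks either. For fibroblast genes they were 6.30 to 6.917 in WT and 6.922 to 7.29 in R6/2 arrays. Those of the rod, lens, cornea and gland genes overlapped. The cone genes had a median log2 difference of −2.46 (3 of 5 called), and the genes of eye muscle (−1.20), of glands (−1.99) and of fibroblasts (0.49) had 0 called. Their part in the values of the 10 genes was not tested. No test is given for the mean of the 10 genes, since they were chosen with earlier results of these data known.

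Csf1r had the lowest unadjusted p of the 10 at 9 weeks. Its values were 4.60, 4.78, 4.55 and 4.80 in the R6/2 arrays and 4.36, 4.42, 4.24 and 4.57 in the WT arrays. The lowest R6/2 array lay just below the highest WT array. The log2 difference was 0.28 ± 0.12 (SE), a 1.22-fold level, with an unadjusted p of 0.026 and an adjusted p of 0.572 in limma. An unadjusted p under 0.05 was found for this 1 gene of the 10 and for 7.81% of all genes. The gene was called in 1 alternative, with arrays weighted by their quality, at an adjusted p of 0.147, and 18.9% of the genes that passed the filter were called in that setting (2094 in place of 19).

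Mrc1 was at 4.32, 4.23, 4.46 and 4.59 in the R6/2 arrays and at 3.82, 4.18, 3.86 and 4.46 in the WT arrays. The 2 highest WT values were those of replicates 2 and 4, the arrays high in gland genes. The log2 difference was 0.32 ± 0.18 (SE), with an adjusted p of 0.587 in limma. Without those 2 arrays it was 0.56 (unadjusted p = 0.013, adjusted p = 0.911 in limma), with only 2 WT arrays left. R6/2 replicate 4, the highest R6/2 array in Mrc1, was also high in Elovl3 (7.14) and was kept. This setting thus removed gland-rich arrays from the WT side only.

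Tmem119 was the 1 gene of 10 without overlap between the groups at 9 weeks, as were 5.23% of all genes. Its values were 2.40, 2.33, 2.43 and 2.38 in the R6/2 arrays and 2.55, 2.44, 2.55 and 2.44 in the WT arrays. The log2 difference was −0.11 ± 0.09 (SE), with an unadjusted p of 0.22 in limma. The highest R6/2 array and the lowest WT array lay next to each other.

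Cx3cr1 was at 5.11, 5.01, 5.21 and 5.09 in the R6/2 arrays and at 5.05, 4.75, 5.04 and 5.01 in the WT arrays. WT replicate 2 lay below the other 7 arrays, which spanned 5.01 to 5.21, and the log2 difference was 0.14 ± 0.18 (SE). The other 6 genes differed by −0.06 to 0.16, with unadjusted limma p from 0.49 to 0.81. These were P2ry12, Aif1, Trem2, Tyrobp, Cd68 and Itgam, and all of their intervals held 0.

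**Figure D2:**
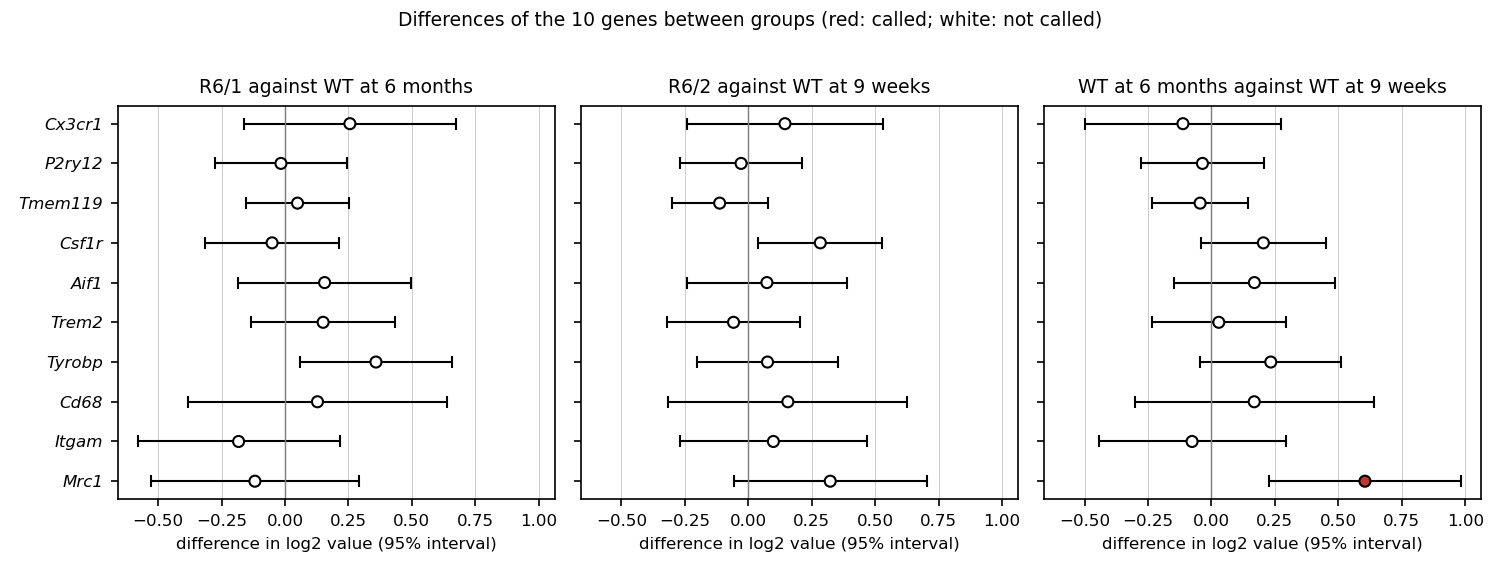
Estimated log2 differences of the 10 genes, with 95% confidence intervals from limma, for each model against the WT eyes of its own age and for older against younger WT eyes. Mrc1 between the WT groups is the 1 gene called (red), at 0.60.

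The change in R6/1 eyes and that in R6/2 eyes were not shown to differ for any of the 10 genes. In the test of the difference between the 2 changes, 0% of genes were called, with and without the filter, and 3% had an unadjusted p under 0.05. None of the 10 had one in limma. The lowest unadjusted p, 0.066 in limma, was that of Csf1r. This gene differed by −0.05 in R6/1 and by 0.28 in R6/2 eyes. The intervals of the 10 differences reached from −1.001 to 0.69 on the log2 scale, which leaves room for unlike responses. The 2 models also differ in age, in cohort and, per the methods of the study, in repeat length. These cannot be told apart here.

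Between WT eyes of the 2 ages, Mrc1 was higher at 6 months. Its WT values were 5.05, 4.70, 4.42 and 4.56 at 6 months and 3.82, 4.18, 3.86 and 4.46 at 9 weeks. All of the 6-month arrays but replicate 3 exceeded every 9-week array, and the ranges overlapped. The log2 difference was 0.60 ± 0.18 (SE), a 1.52-fold level with a 95% interval from 1.17-fold to 1.98-fold, and the adjusted p was 0.077 in limma. In this comparison 19.2% of the genes tested were called (2128 of 11090), and 9.57% without the filter, so that 1 gene called of 10 is near the background. The difference was 0.65 without the array labelled WT replicate 4, and 0.84 without the 2 WT arrays of 9 weeks high in gland genes, and it was called in both settings. It was not called when only the 2 WT groups were fitted (adjusted p = 0.233). The animals of each age were a separate cohort, so age and cohort cannot be told apart.

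The other 9 genes were not called between the ages. Their differences ran from −0.11 for Cx3cr1 to 0.23 for Tyrobp. None of the 10 genes was without overlap between the WT groups, as were 5.96% of all genes, and Mrc1 was the 1 gene of 10 with an unadjusted p under 0.05, as had 16.1% of all genes. For Cx3cr1 the call depended on WT replicate 3 at 6 months. Its value there was 5.47, against 4.54 to 4.75 in the other WT arrays of that age and 4.75 to 5.05 at 9 weeks. Without that array the difference was −0.32 and Cx3cr1 was called as lower at 6 months, as it was when both arrays of narrow range were left out (adjusted p = 0.094 in limma). The fit without that array called 2903 of the genes tested in place of 2128. Csf1r was called as higher at 6 months with quantile normalization and with the range of the array as covariate (adjusted p = 0.146 and 0.174 in limma). So was Tyrobp with array weights (adjusted p = 0.173 in limma), where 31% of the genes that passed the filter were called.

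Values of several of the 10 genes moved with the width of the array's distribution. Over the 15 arrays the Pearson correlation with the interquartile range of the array was −0.71 for Cx3cr1, −0.70 for Aif1 and −0.62 for Trem2. It was 0.73 for Itgam and 0.60 for Cd68. Thus 5 of the 10 genes had a correlation beyond 0.5 in size, as did 39.6% of all genes. Without the 2 arrays of narrowest range the same correlations were −0.30, −0.29, −0.20, 0.46 and 0.48. These are descriptions, since all arrays were normalized together and the 2 narrow arrays lie far from the rest.

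**Figure D3:**
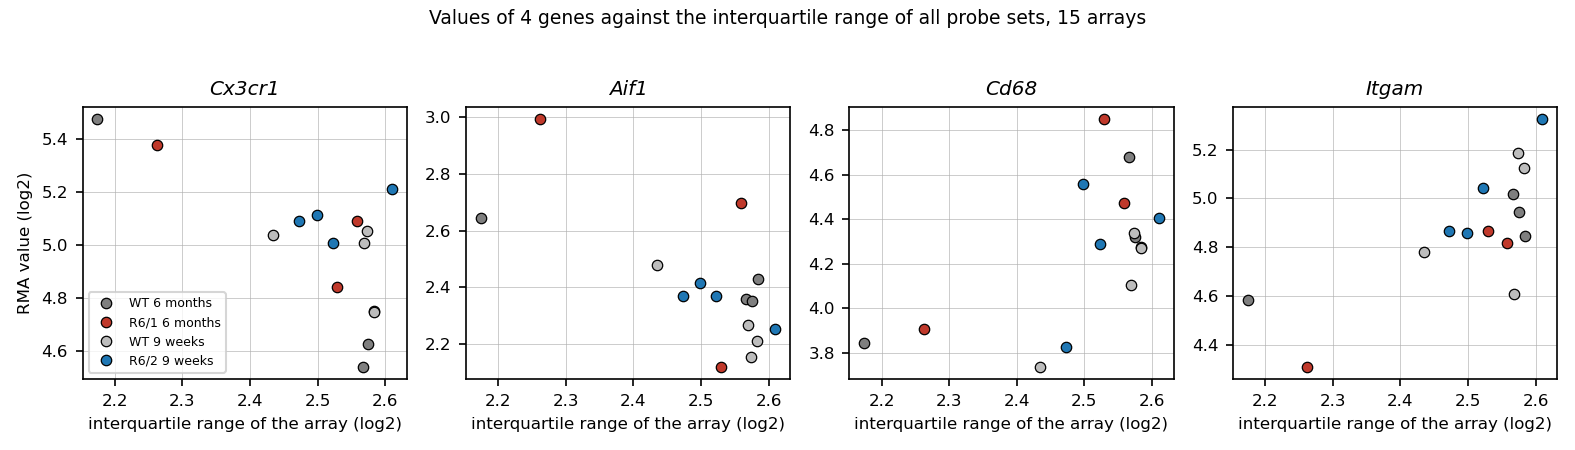
Expression value (RMA, log2) of Cx3cr1, Aif1, Cd68 and Itgam against the interquartile range of all probe sets of the array (log2), where each point is 1 of 15 arrays, coloured by group. The 2 arrays at 2.17 and 2.26 lie high for Cx3cr1 and Aif1 and low for Itgam, and are among the 4 lowest for Cd68.

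The 10 genes did not vary as 1 group. Of their 45 pairs, 6 had a Pearson correlation above 0.5 over the 15 arrays, 4 had one below −0.5, and the median was −0.06. Aif1 and Tyrobp were most alike (0.79), followed by Csf1r and Mrc1 (0.73). Tyrobp and Itgam ran opposite to each other (−0.76), as did Aif1 and Itgam (−0.74). These correlations pool the 4 groups. For deviations from the group means the same 4 pairs, in that order, had 0.74, 0.78, −0.75 and −0.69. Other pairs shifted, as Trem2 and Tyrobp from 0.51 to 0.28 and Cd68 and Itgam from 0.48 to 0.72. The pairs share arrays, normalization and the dependence on array width described above.

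The genes whose values were most like the mean of the 10, among all other genes over the 15 arrays, were Zxdb, Lyz2, Cybb, Gpx8, Mrpl47, Fkbp7, Cxcr4, Ift43, Trim21 and Olfr922, with Pearson correlations from 0.81 to 0.84. Lyz2 encodes a lysozyme of macrophages and neutrophils, Cybb a subunit of the phagocyte NADPH oxidase and Cxcr4 a chemokine receptor. The rank was taken over all genes and few arrays, and is a description. Group means were not removed, so differences between the ages enter these correlations. Lyz2 and Ctss were called between the WT groups, as given below. The mean of the 10 was 3.76 in WT eyes at 6 months and 3.64 at 9 weeks. Of 22 other microglia genes, Ctss was most like that mean (0.78), followed by Ptprc (0.74), the common leukocyte antigen, and C1qb (0.63), a chain of complement C1q. Runx1 was least like it (−0.36).

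Lists of other immune genes bore on the same question, and held 101 measured genes in 12 lists. Of these 0 were called in R6/1 and 0 in R6/2 eyes by limma. An unadjusted p under 0.05 was found for 6 of them (5.94%, beside 3.1% of all genes) in R6/1 eyes and for 7 (6.93%, beside 7.81% of all genes) in R6/2 eyes. Of the 22 other microglia genes, 14 were above 0 in R6/1 eyes with a median log2 difference of 0.08, and 19 in R6/2 eyes with a median of 0.13. Over all genes 52.2% and 54.7% were above 0, with medians of 0.01 and 0.02. Without WT replicate 4 at 6 months, 15 of the 22 were above 0 in R6/1 eyes, with a median of 0.031. Of 17 genes of disease-associated microglia, 12 and 11 were above 0, with medians of 0.09 and 0.12. The 13 other tissue macrophage genes had medians of 0.14 and 0.12 (0.075 in R6/1 eyes without that array), and the 11 inflammatory cytokine and chemokine genes −0.07 and 0.01. Among the latter Il1a had the lowest p (−0.34 in R6/1 eyes, −0.27 without WT replicate 4, with an adjusted p of 1.00 in both). Of the markers of other leukocytes, the mean of 5 T cell genes was 1.90 to 2.39 in WT and 1.98 to 2.33 in R6/1 arrays at 6 months, and 1.88 to 2.00 in WT and 1.94 to 2.06 in R6/2 arrays at 9 weeks. The T cell gene of lowest p, Cd4, differed by 0.18 in R6/1 eyes (adjusted p = 1.00) and by 0.11 without WT replicate 4, and Cd79b of the 3 B cell genes by 0.14 in R6/2 eyes (adjusted p = 0.865). The mean of 7 neutrophil genes was 1.93 to 2.07 over both groups at 6 months, and 2.02 to 2.28 in WT and 1.94 to 2.08 in R6/2 arrays at 9 weeks. The mean of 4 monocyte genes was 2.51 to 2.64 in WT and 2.25 to 2.48 in R6/1 arrays at 6 months, without overlap, and 2.35 to 2.62 in WT and 2.23 to 2.57 in R6/2 arrays at 9 weeks. This mean was not tested. The median difference of the 4 genes in R6/1 eyes was −0.08, and the lowest was −0.54, that of Plac8. Without WT replicate 4, 2 of the 4 were above 0. The means of the mast cell and dendritic cell lists overlapped between the groups at both ages. Single markers of these lists gave brighter signals, as Cd209a with 4.82 to 6.11 and Kit with 4.27 to 5.50 over the 15 arrays.

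Ctss, the lysosomal cysteine protease cathepsin S, was at 6.69, 7.004 and 6.73 in the R6/1 arrays and at 6.34, 6.81, 6.54 and 5.99 in the WT arrays of 6 months. It was at 5.54, 5.74, 5.75 and 5.47 in the R6/2 arrays and at 5.30, 5.15, 5.33 and 5.11 in the WT arrays of 9 weeks. The groups overlapped at 6 months and did not at 9 weeks, where 5.23% of all genes were without overlap. The log2 differences were 0.39 ± 0.17 (SE) in R6/1 eyes and 0.40 ± 0.16 (SE) in R6/2 eyes, with adjusted p of 1.00 and 0.412 in limma. Without WT replicate 4 at 6 months, the lowest of its group, the difference in R6/1 eyes was 0.25. With the replicate number as a block Ctss was called in R6/2 eyes (adjusted p = 0.179 in limma), although replicate numbers did not pair the arrays of that age. In that setting 569 of the genes tested were called in place of 19, and 2 of the 101 other immune genes.

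H2-Ab1, the beta chain of an MHC class II molecule of antigen-presenting cells, was at 3.83, 4.95 and 3.89 in the R6/1 arrays and at 3.29, 3.502, 3.70 and 3.52 in the WT arrays. All R6/1 arrays lay above the WT arrays, and R6/1 replicate 2 lay more than 1 log2 unit above the other 2. The log2 difference was 0.72 ± 0.28 (SE), with an unadjusted p of 0.021 and an adjusted p of 1.00 in limma, and 0.73 without WT replicate 4. Clec7a, the beta-glucan receptor dectin-1, was singled out after its values were seen. Of the 17 genes of disease-associated microglia in R6/1 eyes, it was the 1 higher at an unadjusted p under 0.05 in limma, and 1 was lower. Clec7a was at 3.504, 3.44 and 3.41 in the R6/1 arrays and at 3.24, 2.79, 2.997 and 2.86 in the WT arrays. The groups again did not overlap, as was so for 3.13% of all genes. The difference of Clec7a was 0.48 ± 0.14 (SE; unadjusted p = 0.0028, adjusted p = 0.678), 0.44 without WT replicate 4 (adjusted p = 0.72), and −0.02 ± 0.13 (SE) in R6/2 eyes. The 2 changes were not shown to differ (adjusted p = 1.00 in limma). Plac8 of the monocyte list had an estimated difference of −0.54 in R6/1 eyes and of −0.42 without WT replicate 4 (adjusted p = 1.00 in both). Lpl had one of −1.37 in R6/2 eyes (adjusted p = 0.295), and one of −0.58 without the 2 WT arrays high in gland genes (adjusted p = 1.00). Lpl was called with the replicate number as a block (adjusted p = 0.151 in limma), where 569 of the genes tested were called in place of 19.

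Between the WT groups 12 of the 101 other immune genes were called, 7 higher and 5 lower at 6 months, beside 19.2% of the genes that passed the filter and 9.57% of all genes. An unadjusted p under 0.05 was found for 12.9% of them, beside 16.1% of all genes. Higher were Ctss, Lyz2, Cd63, C1qa, Gpr34, Cd14 and Cpa3. Lower were Cbr2, Lpl, Cx3cl1, Ly6g and Cd209a. Lyz2 differed by 1.27 ± 0.18 (SE; adjusted p = 0.0018) and Ctss by 1.20 ± 0.16 (SE; adjusted p = 0.0013) in limma. For Lyz2 the WT arrays were at 6.96, 7.02, 6.86 and 6.16 at 6 months and at 5.44, 5.45, 5.43 and 5.59 at 9 weeks, so that even the lowest 6-month array, WT replicate 4, lay above all others. C1qa differed by 0.31 ± 0.10 (SE), and Gpr34, a microglial lysophospholipid receptor, by 0.44 ± 0.16 (SE).

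Cbr2, a carbonyl reductase also made by cells other than macrophages, was lower at 6 months by 0.88 on the log2 scale (adjusted p = 0.038), and the neuronal ligand gene Cx3cl1 by 0.42 (adjusted p = 0.14). Lpl, the lipoprotein lipase that fat and gland tissue also make, was lower by 1.13 and reached 6.70 and 7.78 in the 2 arrays of 9 weeks high in gland genes. Without those 2 arrays, 5 of the 12 calls remained, those of Ctss, Lyz2, Cd63, Cbr2 and Cpa3. The calls over all genes tested went from 2128 to 258 in that setting. The same 5 remained when only the 2 WT groups were fitted, with 179 calls over all genes tested. Without WT replicate 4 at 6 months, 8 remained, with 1411 calls over all genes tested. Genes of glands, lens, pigment epithelium and fibroblasts were also called between the WT groups, such as Fasn at −2.36 and Dcn at 0.57, and their part in the values of immune genes was not tested.

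**Figure D4:**
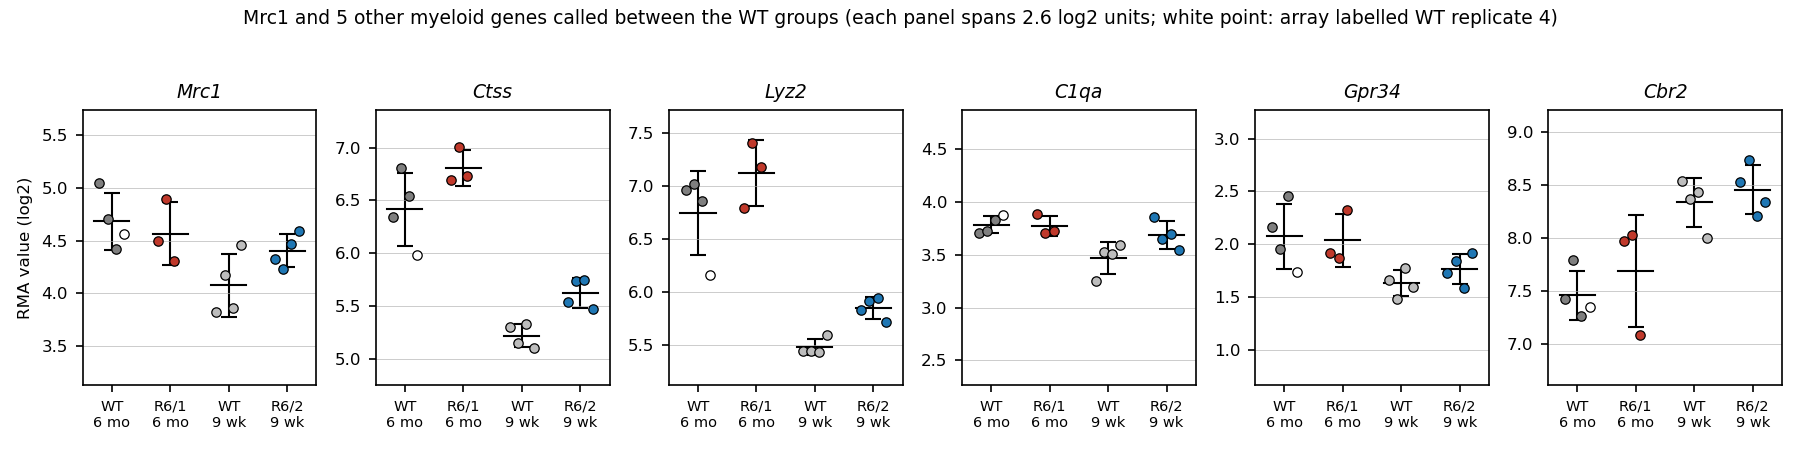
Expression value (RMA, log2) of Mrc1, Ctss, Lyz2, C1qa, Gpr34 and Cbr2 in each of the 15 arrays by group, where points are arrays in order of replicate number, horizontal lines are means and bars are SD. Ctss and Lyz2 are higher in every 6-month array than in any array of 9 weeks, whatever the genotype.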

How the data were processed

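The authors corrected background, normalized and summarized the arrays with RMA (affy), and log2 values of 41345 probe sets were deposited with no variance filter. The labels name the GeneChip IVT Express Kit and the methods the WT Plus kit. Probe sets were named from the platform annotation (23521 with 1 symbol, 1820 with several, 16004 unnamed here), and the one with the highest mean was kept for each of 22180 genes. A linear model of 4 group means was fitted across genes with limma 3.58.1 in R 4.3.3, after the filter and with the thresholds given above. It was tested on simulated data.

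The members and lists were chosen with earlier results of these data known. Named are the 10 members, the called genes of each list or else its gene of lowest p in either model, and the 10 genes most alike. At 6 months same-numbered arrays deviated together (r = 0.41, 0.34 and 0.75 for replicates 1, 2 and 3, at most 0.31 otherwise), which the labels do not explain. The 0.75 is that of the arrays of narrow range. Differently numbered pairs without a replicate 3 had r of 0.22 to 0.31, so replicates 1 and 2 stood little above them. At 9 weeks same-numbered arrays did not deviate together (r = −0.29 to 0.26). The replicate block was an alternative, as were other filters, thresholds, normalizations, weights and left-out arrays. List genes without a probe set of 1 symbol and the qPCR data were not used here.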

Additional observations from a re-analysis of the deposited data

Results flagged for a closer look

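Among 33 sets of 4 arrays checked (each of the 10 genes and their mean, in the 3 groups of that size), 1 held an array far from the others. Cx3cr1 was at 4.75 in WT replicate 2 at 9 weeks, against 5.01 to 5.05 in the other WT arrays of that age, and its gap took 0.845 of the group's range. Chance flags about 1 in 20 sets. This array is 1 of the 2 high in gland genes.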

How the results depend on the processing

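The count of called members stayed at 0 for R6/1 in 28 alternatives and for the difference between models in 27, and for R6/2 it was 1 (Csf1r) with array weights and 0 in the other 27. For age it was 0 at an adjusted p under 0.05 or with only the 2 groups fitted, 2 with quantile normalization, array weights, the range of the array as covariate or the 2 narrow arrays left out, and 1 to 2 when leaving out each array. Counts over all genes moved widely. For R6/1 the 6 genes became 2 without a filter, 0 with a filter on dim genes, 1 at an adjusted p under 0.05, 24 with only the 2 groups, 3 with trend and robust settings, 2 with quantile normalization, 3 with median centring, 82 with array weights, 76 with the replicate block, 15 with the range covariate, 1 without the narrow arrays and 0 (without R6/1 replicate 1) to 51 (without WT replicate 4) leaving out each array. For R6/2 the 19 became 0 at an adjusted p under 0.05, 42 with only the 2 groups, 69 with quantile normalization, 2094 with array weights, 569 with the replicate block, 551 with the range covariate, 151 without the narrow arrays, 6 without the gland-rich arrays and 2 (without R6/2 replicate 3) to 847 (without WT replicate 3 at 9 weeks) leaving out each array. For the difference, 0 became 1 without the gland-rich arrays and 0 to 1 leaving out each array. For age, 2128 became 276 at an adjusted p under 0.05, 179 with only the 2 groups, 1236 with median centring, 3436 with array weights, 3335 with the range covariate, 258 without the gland-rich arrays and 681 (without WT replicate 2 at 9 weeks) to 2903 (without WT replicate 3 at 6 months) leaving out each array. The causes were not tested. The replicate block changed no call of a member, and no such fit exists for age, where the groups share no block.

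Signs turned in these settings for estimates of at most 0.16 in size. In R6/1 eyes P2ry12 was 0.020 and Csf1r 0.044 without the narrow arrays, and Csf1r 0.028 with array weights. In R6/2 eyes P2ry12 was 0.022 without the gland-rich arrays and Itgam −0.022 with array weights. For the difference, P2ry12 was −0.074 with the replicate block and −0.039 without the gland-rich arrays, Aif1 −0.046 without the narrow arrays, and Cd68 0.052 with array weights and 0.079 without the narrow arrays. For age, P2ry12 was 0.015 without the gland-rich arrays, Trem2 −0.048 with array weights, −0.021 with the range covariate and −0.073 without the narrow arrays, and Itgam 0.010 with the covariate and 0.012 without the narrow arrays. Leaving out each array turned signs within these ranges. In R6/1 eyes they were −0.10 to 0.10 for P2ry12, −0.025 to 0.092 for Tmem119, −0.17 to 0.077 for Csf1r, −0.039 to 0.40 for Aif1, −0.093 to 0.38 for Cd68 and −0.28 to 0.011 for Mrc1. In R6/2 eyes they were −0.10 to 0.0071 for Trem2, −0.00023 to 0.14 for Tyrobp and −0.0068 to 0.19 for Itgam. For the difference they were −0.026 to 0.32 for Cx3cr1, −0.074 to 0.13 for P2ry12, −0.11 to 0.32 for Aif1 and −0.25 to 0.22 for Cd68. For age they were −0.15 to 0.051 for P2ry12, −0.087 to 0.029 for Tmem119, −0.073 to 0.12 for Trem2 and −0.18 to 0.012 for Itgam. The signal over background, which the values used here do not give, limits what the dim genes can show.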
